A study of Arabidopsis thaliana with 12 samples.

Results

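The 7 genes described here encode the enzymes that take chlorophyll apart in Arabidopsis thaliana. They were chosen by locus and not by a cut on their values, though earlier results of these data were known. The loci are SGR1 (AT4G22920), SGR2 (AT4G11910), NYC1 (AT4G13250), NOL (AT5G04900), PPH (AT5G13800), PAO (AT3G44880) and RCCR (AT4G37000). All 7 were among the 20002 genes of the wild-type table, and 6 of them were among the 20492 genes of the atg5 table. SGR2 was listed for wild type and is not analysed here in atg5. The 6 shared genes are part of the 19714 genes in both tables, on which the tests ran.

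Chlorophyll breakdown runs as a single line of enzymes in the plastid. Chlorophyll b is first reduced towards chlorophyll a by the reductases NYC1 and NOL, the magnesium is taken out by the stay-green proteins SGR1 and SGR2, and PPH cuts off the phytol tail. PAO then opens the ring of pheophorbide a, the step that ends the green colour, and RCCR reduces the red product to a colourless one that leaves for the vacuole. In leaves the pathway is known for degreening during senescence. In seeds it is known for the loss of chlorophyll at maturation.

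The RNA came from whole seedlings germinated for 5 days, and both genotypes share the Col-0 background. The groups were atg5 in water stress medium (WSM; 3 libraries), atg5 in control medium (NM; 2 libraries), wild type in WSM (2 libraries) and wild type in NM (3 libraries). NM held Murashige medium with 0.5% sucrose, and WSM held in addition 2.5% glycerol and 0.5% alginic acid. The atg5 plants are an insertion line in ATG5 (SALK_020601C), which is needed to attach ATG8 to lipid in autophagy, and a single line was used. The labels name flasks but do not say whether libraries of a group came from separate ones, so each p-value here speaks only of variation among these libraries, part of which may be technical. The study's title sets autophagy mutant against wild type under water deprivation.

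Libraries held 8928632 to 24022759 counts, of which genes in the rRNA regions took 19.0% to 65.5%. The shallowest was library 1 of atg5 in WSM, with 3079543 counts outside these regions. The ATG5 transcript was at 20.2 to 31.7 CPM (counts per 1e6 TMM-scaled counts) in the 10 libraries, so a count over the whole gene does not separate the genotypes. The PREP1 gene had 349, 4 and 2412 counts in the 3 atg5 WSM libraries and 2 and 0 counts in the atg5 NM libraries, against 753 to 2668 in wild type. These counts are not scaled for depth. The wild-type library with 753 had 7367748 counts outside the rRNA regions, against 3079543 in the atg5 WSM library with 349. The 349 is thus not shown to lie below the wild-type level. The libraries labelled atg5 in WSM thus differed among themselves in PREP1, and the values of members that changed sign without libraries 1 and 3 are given with the other alternatives. Markers of green cotyledons and of roots were present in every library. The summed level of 4 seed storage and oil body genes was 7.55 to 125 CPM in atg5 WSM and 8.47 to 40.1 CPM in atg5 NM libraries, against 1445 to 1925 CPM in wild-type WSM and 1509 to 2119 CPM in wild-type NM libraries. In wild-type NM most of it was CRA1 and CRU3, at means of 1214 and 606 CPM. SESA1 averaged 0.63 CPM there and 1.28 CPM in atg5 NM. Between genotypes, 0 of the 4 had an adjusted p under 0.05 in either medium in the edgeR fit of all 10 libraries. In each medium 3 of the 4 had an unadjusted p under 0.05 there, as did 13.9% of all genes in NM and 12% in WSM. Some fits with 1 library left out did call seed genes lower in atg5, in NM and in WSM.

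SGR1 with SGR2, and NYC1 with NOL, are paralogs, and the sequences of the enzymes bear on how reads were counted and on what sits at their starts. The coding sequences of SGR1 (807 bases) and SGR2 (816 bases) were identical at 620 of 789 aligned bases (78.6%) in the RefSeq annotation of TAIR10.1. Their longest identical stretch had 28 bases and is shown because a shorter read could not be told between the genes there:
SGR1 and SGR2: aactctcagttgcaaggatgggcaaata
Those of NYC1 (1491 bases) and NOL (1047 bases) were identical at 58.7% of aligned bases, with 14 bases as their longest shared stretch. The paired reads were longer than either stretch, per the labels' protocols.

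The regions from 250 bases before to 50 bases after the annotated start were searched on both strands. The first motif was CACGTG, the G-box, known to be bound by bZIP and bHLH factors. The other motifs were its core, ACGTG, and a related one, CACGTC. The G-box, CACGTG, was found for 3 of the 7 genes, NYC1, NOL and SGR2, and in 7.68% of 27443 such regions of protein-coding genes. ACGTG, which lies inside CACGTG, was in the same 3 and in 26.7% of all regions. CACGTC was in SGR2 alone and in 6.98% of all. With the 250 bases before the start alone, CACGTG remained in SGR2 and NOL and in 6.49% of genes. The sequences are shown with the matches in capitals, because these are the members whose starts carry the letters. For NYC1 (chr4:7686957-7686986, minus strand) the match begins 35 bases into the transcript. For NOL (chr5:1434741-1434770, plus strand) it begins 21 bases before the start, and the stretch shown overlaps the neighbouring gene AT5G04895. For SGR2 (chr4:7155900-7156149, plus strand) CACGTG begins 112 and CACGTC 52 bases before the start:
NYC1: gaaacacaaaatgaCACGTGtcaatgttag
NOL: cttatatgccgcCACGTGgcatttaactct
SGR2: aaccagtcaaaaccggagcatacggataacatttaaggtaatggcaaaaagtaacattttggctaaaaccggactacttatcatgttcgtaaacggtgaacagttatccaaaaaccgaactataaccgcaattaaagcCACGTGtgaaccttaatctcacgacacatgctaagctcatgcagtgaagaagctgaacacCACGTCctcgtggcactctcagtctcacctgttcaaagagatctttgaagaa
A match is a string of letters and not a site shown to be bound.

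All 7 transcripts were present at low to moderate levels, and the late enzymes of the pathway were not the rarest. Per kilobase of exon, RCCR averaged 16.5 ± 3.10 CPM, NYC1 11.7 ± 3.51, PAO 8.46 ± 1.04, PPH 8.08 ± 1.42, NOL 5.78 ± 1.27 and SGR1 2.74 ± 0.70 CPM per kilobase (SD, n = 10). SGR2 averaged 1.13 ± 0.52 CPM per kilobase in the 5 wild-type libraries. The median of all genes was 5.69 CPM per kilobase, so NOL lay near it, with 50.5% of genes below, RCCR lay above 78.5% of genes and SGR1 above 28.2%. The Mg-dechelatases SGR1 and SGR2 were thus the lowest members, and the reductase NYC1 was above its paralog NOL.

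**Figure D1:**
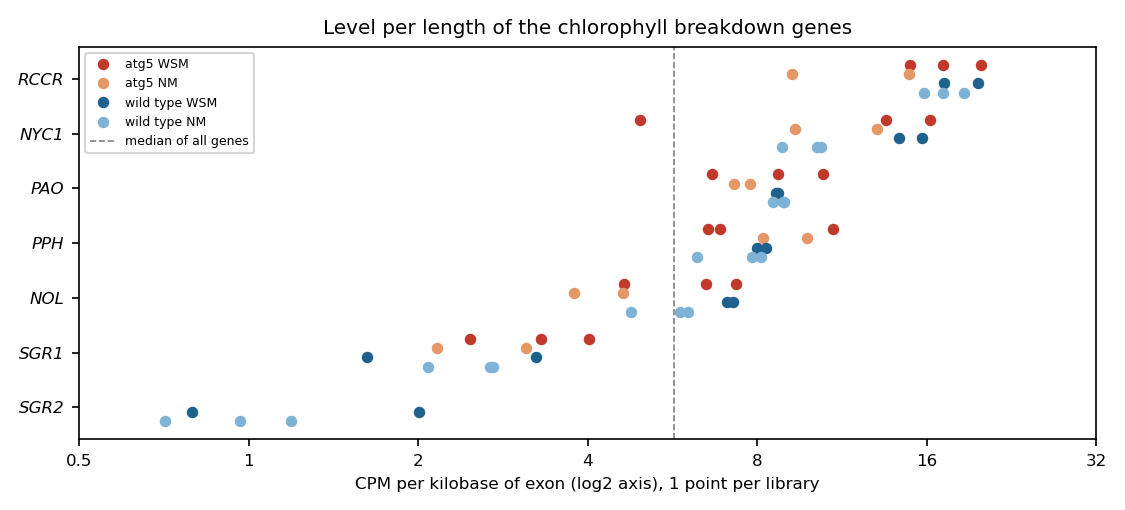
Level per kilobase of exon of each member in each library (CPM per kilobase, log2 axis), 1 point per library, coloured by group, with the median of all genes as a dashed line. RCCR has the highest mean at 16.5 CPM per kilobase, and SGR1 and SGR2 lie below the median line in every library shown.

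The order of levels per kilobase held best among the lower members. PPH was above NOL and NOL above SGR1 in 10 of 10 libraries, and SGR1 was above SGR2 in 5 of 5. RCCR was above NYC1, and NYC1 above PAO, in 9 of 10. PAO and PPH were in order in 7 of 10 libraries, with a median ratio of 1.05, so these neighbours did not differ beyond their spread. The ranges over libraries of every neighbouring pair overlapped.

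No member passed the test in any of the 5 comparisons, so the breakdown pathway was not called changed by medium or by genotype. By edgeR's quasi-likelihood test with Benjamini-Hochberg adjusted p under 0.05, 0 of 6 members were called for WSM against NM in atg5, where 7.86% of all genes were called, and 0 of 6 in wild type, where 5.89% were. For the difference of these responses 0 of 6 were called, with 0% of all genes. For atg5 against wild type the count was 0 of 6 in NM, with 0.147% of all genes called, and 0 of 6 in WSM, with 0.0355%. At an unadjusted p under 0.05 the count was also 0 in each comparison, where 25.2%, 22.5%, 15.1%, 13.9% and 12% of all genes passed, in the same sequence. DESeq2 called 0 of 6 in each as well. At the adjusted rates fewer than 1 of 6 genes would be called, so a count of 0 does not set the members apart from the table. The 95% intervals give the sizes left: over the 6 members they ran from 0.598 to 2.21-fold for WSM in atg5, from 0.56 to 2.66-fold for WSM in wild type, and from 0.312 to 2.74 for the ratio of these folds. In whole seedlings, fewer cells of a type and less RNA per cell cannot be told apart.

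**Figure D2:**
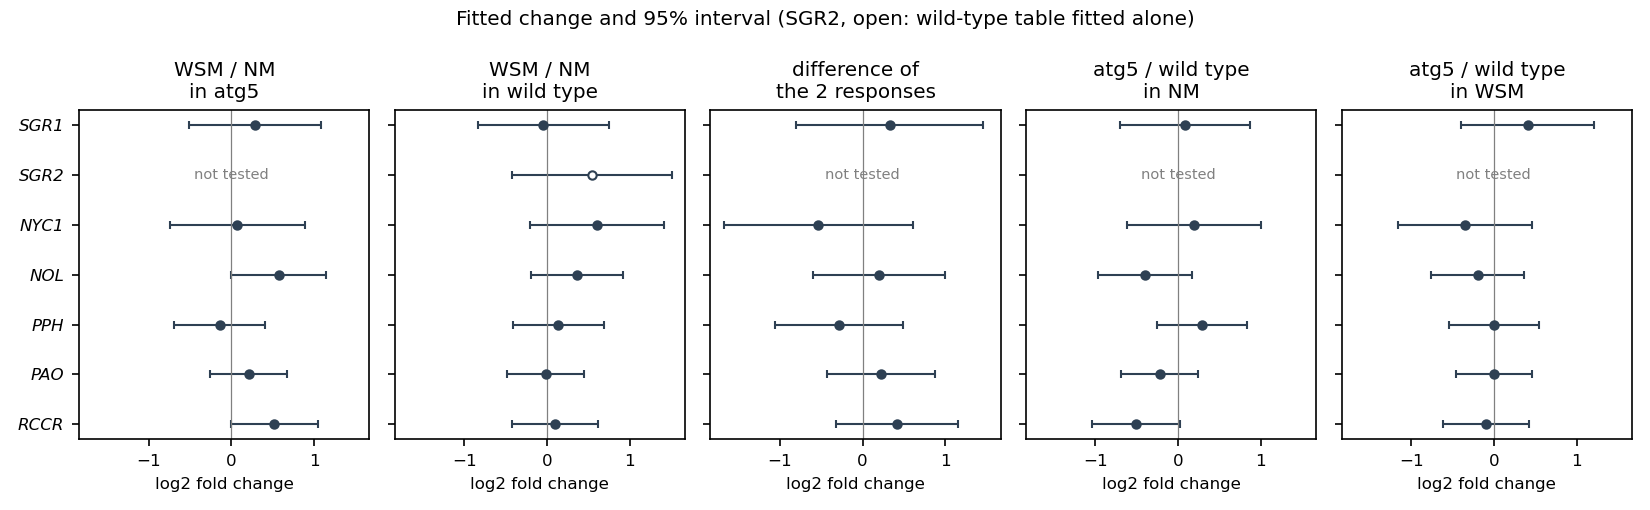
Fitted log2 fold change of each member in the 5 comparisons, with 95% intervals from the quasi-likelihood fit. Every interval covers 0. SGR2 (open point) comes from the wild-type table fitted alone and was not tested elsewhere.

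SGR1, also called NYE1, takes the central magnesium out of chlorophyll a and lies on chromosome 4 (12016420 to 12018643, minus strand). It was at 7.09, 5.83 and 4.36 CPM in atg5 WSM libraries and at 3.82 and 5.49 CPM in atg5 NM libraries. In wild type it was at 5.71 and 2.86 CPM in WSM and at 4.74, 4.79 and 3.67 CPM in NM. The groups overlapped in both genotypes, and the 2 wild-type WSM libraries held the highest and the lowest of the 5 wild-type values. The fitted log2 fold change for WSM was 0.29 ± 0.36 in atg5 (SE; adjusted p = 0.670, edgeR) and -0.042 ± 0.36 in wild type (adjusted p = 0.962). SGR1 rests on 36 to 177 counts per library, with 36 in library 1 of atg5 WSM, where its level was highest.

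SGR2, the second dechelatase, lies on chromosome 4 (7156150 to 7158047, plus strand) and had 51 and 28 counts in wild-type WSM, against 19, 19 and 33 in wild-type NM. That corresponds to 2.62 and 1.04 CPM in WSM and 1.55, 0.93 and 1.26 CPM in NM, so 1 WSM library was above all NM libraries and the other was among them. On the wild-type table alone its log2 fold change was 0.55 ± 0.44 (edgeR, adjusted p = 0.381 over 20002 genes). The sign rested on library 3 of wild-type WSM: without it the value was -0.23, and without library 4 it was 1.09. SGR2 was close to the level below which genes are missing from the tables: before TMM scaling, 3 of its 5 libraries exceeded 1 CPM, and every gene listed in either table did so in at least 2.

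NYC1, the chlorophyll b reductase that starts the breakdown of the light-harvesting antenna, lies on chromosome 4 (7684156 to 7687006, minus strand). It was at 10.2, 28.0 and 33.5 CPM in atg5 WSM libraries, against 27.03 and 19.3 CPM in atg5 NM. In wild type it was at 29.5 and 32.4 CPM in WSM, against 18.3, 21.2 and 21.4 CPM in NM. The wild-type groups did not overlap, while the atg5 WSM libraries held both the lowest and the highest value of all 10. The group means were 23.9 ± 12.2 and 23.2 ± 5.49 CPM in atg5 WSM and NM, and 30.9 ± 2.01 and 20.3 ± 1.72 CPM in wild-type WSM and NM (SD, n = 3, 2, 2 and 3).

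For NYC1 in wild type the log2 fold change for WSM was 0.61 ± 0.37, or 1.52-fold, with an interval of 0.871 to 2.66-fold and adjusted p = 0.352 in the joint edgeR fit. Without library 1 of atg5 WSM the SE was 0.20 and the adjusted p 0.0741. The call depended on which libraries set the spread. With the wild-type table fitted alone the same fold had an SE of 0.15 and an adjusted p of 0.00987, a fit in which 29.2% of all genes were called. The authors' deposited values likewise give NYC1 a log2 fold change of 0.60 with an SE of 0.19. Its deposited adjusted p is 0.00708, and 27.2% of genes have one under 0.05. The deposited class for NYC1 is not differentially expressed. The synthesis gene HEMA2 and the regulator MYC2 have that class too, at 1.89 and 1.74, with deposited adjusted p of 1.35e-19 and 1.97e-15. The senescence markers WRKY53 and SAG14, at 2.98 and 3.74, have another class. The class thus does not follow the adjusted p alone, and its rule was not tested. In atg5 the NYC1 log2 fold change was 0.07 ± 0.37 (adjusted p = 0.928, edgeR). Without library 1 of atg5 WSM it was 0.41, and without library 3 it was -0.23. Library 1 had 52 NYC1 counts, the fewest of any.

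NOL, the paralog of NYC1 that works with it, lies on chromosome 5 (1434774 to 1437495, plus strand). Its levels were 6.50, 9.10 and 10.3 CPM in atg5 WSM, against 6.46 and 5.29 CPM in atg5 NM. They were 10.1 and 9.91 CPM in wild-type WSM, against 8.18, 8.45 and 6.70 CPM in wild-type NM. In each genotype every WSM library was above every NM library, although library 1 of atg5 WSM exceeded library 1 of atg5 NM only in the second decimal. The log2 fold change was 0.57 ± 0.26 in atg5 (edgeR, unadjusted p = 0.0506, adjusted p = 0.200) and 0.37 ± 0.25 in wild type (adjusted p = 0.416). NOL and NYC1 in wild type, and NOL and RCCR in atg5, were the 2 of 6 members whose WSM libraries were all higher. Of all genes, 28.8% were so in wild type and 16.2% in atg5. A count of 2 of 6 members is too small to be told from either share, and no test was made.

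PPH, the pheophytinase, lies on chromosome 5 (4451733 to 4454813, minus strand). It was at 15.0, 15.7 and 24.9 CPM in atg5 WSM, against 18.8 and 22.5 CPM in atg5 NM. Wild-type libraries had 19.0 and 18.3 CPM in WSM, against 18.6, 14.3 and 17.9 CPM in NM. The media overlapped in both genotypes. Log2 fold changes for WSM were -0.14 ± 0.25 in atg5 (adjusted p = 0.770) and 0.14 ± 0.25 in wild type (adjusted p = 0.782, edgeR).

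PAO, whose loss in mutants leads to build-up of pheophorbide and to cell death in the light, lies on chromosome 3 (16383595 to 16386344, plus strand). It varied least of the members, with a coefficient of variation of 12.3% over the 10 libraries. The levels were 13.4, 17.6 and 21.1 CPM in atg5 WSM, against 14.7 and 15.7 CPM in atg5 NM. The 5 wild-type libraries lay close together, at 17.6 and 17.4 CPM in WSM, against 17.2, 18.0 and 17.9 CPM in NM. The log2 fold change for WSM was 0.21 ± 0.21 in atg5 (adjusted p = 0.581) and -0.016 ± 0.21 in wild type (adjusted p = 0.977, edgeR). The wild-type interval ran from 0.718 to 1.36-fold. PAO shares 11 exonic bases with AT3G44870 on the same strand.

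RCCR, the reductase that turns the red catabolite colourless, lies on chromosome 4 (17442612 to 17444295, plus strand). It was at 25.8, 22.5 and 30.1 CPM in atg5 WSM, against 22.5 and 13.9 CPM in atg5 NM. In wild type it was at 29.8 and 25.9 CPM in WSM, against 23.9, 28.1 and 25.8 CPM in NM. The atg5 groups did not overlap, with a gap within the second decimal between library 2 of WSM and library 1 of NM, and library 3 of atg5 NM was the lowest of all 10. The log2 fold change for WSM was 0.52 ± 0.24 in atg5 (edgeR, unadjusted p = 0.0533, adjusted p = 0.206) and 0.10 ± 0.24 in wild type (adjusted p = 0.841). Without library 3 of atg5 NM the atg5 value was 0.22, and without library 1 it was 0.91. RCCR shares 167 bases, 11.1% of its exons, with CEN2 on the same strand, and CEN2 was at 5.39 to 19.7 CPM, so counts from that stretch are uncertain.

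**Figure D3:**
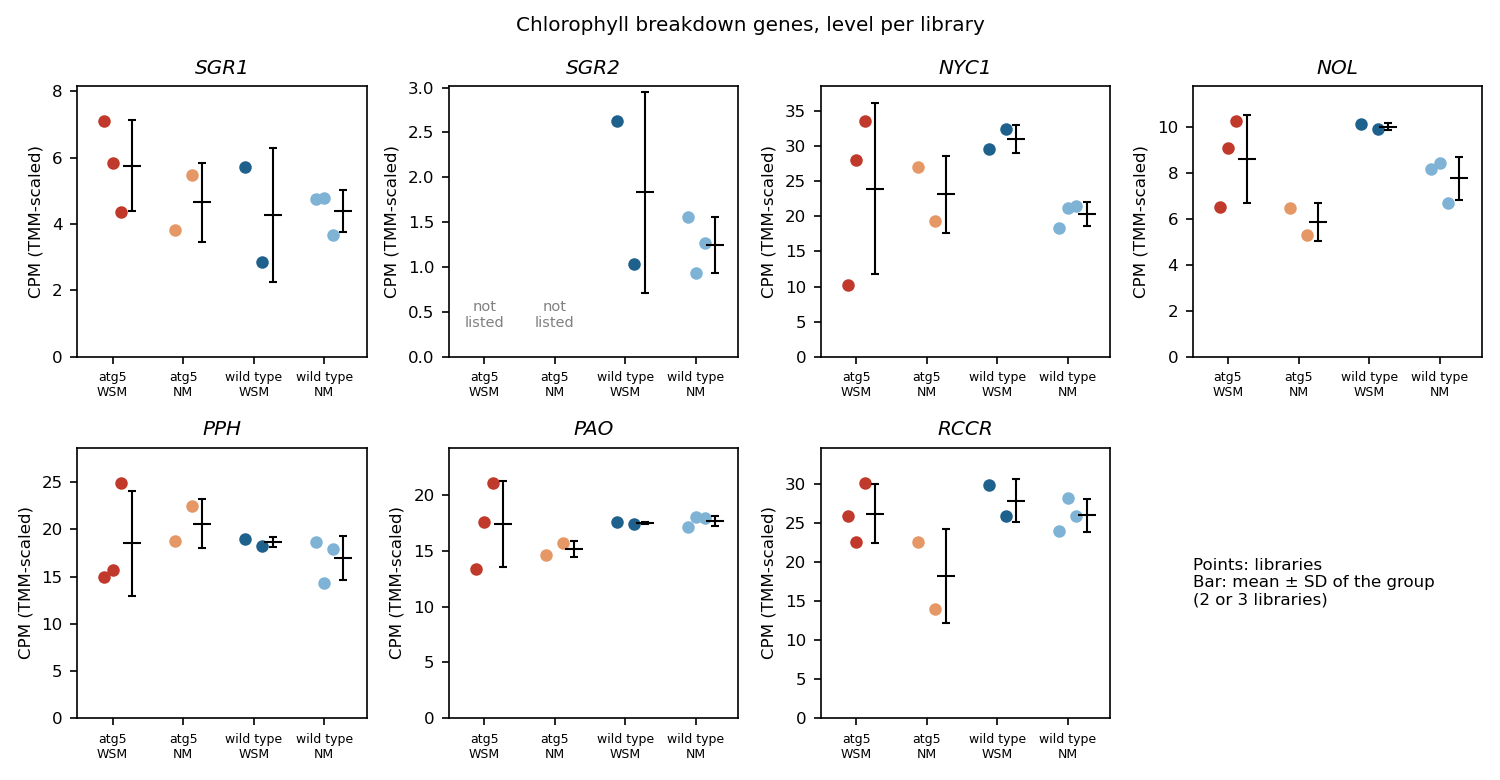
Level of each member in every library (TMM-scaled CPM), by group, with the group mean and SD. The wild-type NYC1 libraries split by medium (29.5 and 32.4 CPM in WSM against 18.3 to 21.4 CPM in NM), while the atg5 WSM libraries span 10.2 to 33.5 CPM.

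The response to WSM was not shown to differ between genotypes for any member. The difference of the log2 fold changes, atg5 minus wild type, was -0.53 ± 0.52 for NYC1 and 0.42 ± 0.34 for RCCR. With 1 library left out it ran from -0.84 to -0.20 for NYC1, with -0.20 without library 1 of atg5 WSM, and from 0.12 to 0.81 for RCCR, with 0.12 without library 3 of atg5 NM. SGR1, PAO and NOL had 0.33 ± 0.51, 0.22 ± 0.30 and 0.20 ± 0.36, and PPH had -0.28 ± 0.35. Adjusted p-values in edgeR's interaction test were 0.578 to 0.823. The median of the 6 was 0.21, beside 0.02 over all genes.

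Between genotypes the members' values lay on both sides of 0, and none was called. In NM, every atg5 library was below every wild-type library for RCCR, NOL and PAO, and above for PPH, so 4 of 6 members did not overlap, as did 38% of all genes. The log2 fold change, atg5 over wild type, was -0.51 ± 0.24 for RCCR (edgeR, unadjusted p = 0.0568, adjusted p = 0.373), -0.40 ± 0.26 for NOL and -0.22 ± 0.21 for PAO. It was 0.28 ± 0.25 for PPH, 0.19 ± 0.37 for NYC1 and 0.08 ± 0.36 for SGR1. Without library 3 of atg5 NM the RCCR value was -0.21, and without library 1 it was -0.90.

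In WSM the log2 fold change, atg5 over wild type, was 0.41 ± 0.37 for SGR1 and -0.35 ± 0.37 for NYC1, with adjusted p of 0.673 and 0.732 (edgeR). NOL and RCCR had -0.19 ± 0.26 and -0.09 ± 0.24, and PPH and PAO had 0.0020 ± 0.25 and 0.0017 ± 0.21. The groups overlapped for all 6 members, whereas 27.4% of all genes had groups that did not. The SGR1 value was 0.99 without library 3 of wild-type WSM and -0.012 without library 4. The NYC1 value was -0.0093 without library 1 of atg5 WSM and -0.65 without library 3. The comparisons share groups: the low atg5 NM libraries of NOL and RCCR enter both the WSM comparison in atg5 and the NM comparison of genotypes.

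Seen library by library, the enzymes did not move as a block. Library 3 of atg5 WSM had the highest level of NYC1, NOL, PPH, PAO and RCCR, at 33.5, 10.3, 24.9, 21.1 and 30.1 CPM, while its SGR1 was at 4.36 CPM, below the SGR1 mean of 4.84 CPM. In library 1 of the same group SGR1 was at its highest and NYC1 and PAO at their lowest, NOL and PPH were below their means, and RCCR, at 25.8 CPM, was above its own. The ratio of SGR1 to NYC1, each per kilobase, was 0.811 in library 1 of atg5 WSM and lay between 0.103 and 0.333 in the other 9 libraries. SGR1 and NYC1 were the least alike pair, with a root mean square difference of 0.75 between their centred log2 CPM over the 10 libraries, and NOL and RCCR the most alike, at 0.22. Library 1 of atg5 WSM was also the shallowest, and 65.5% of its counts fell in rRNA regions; the part of this in the ratio was not tested.

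**Figure D4:**
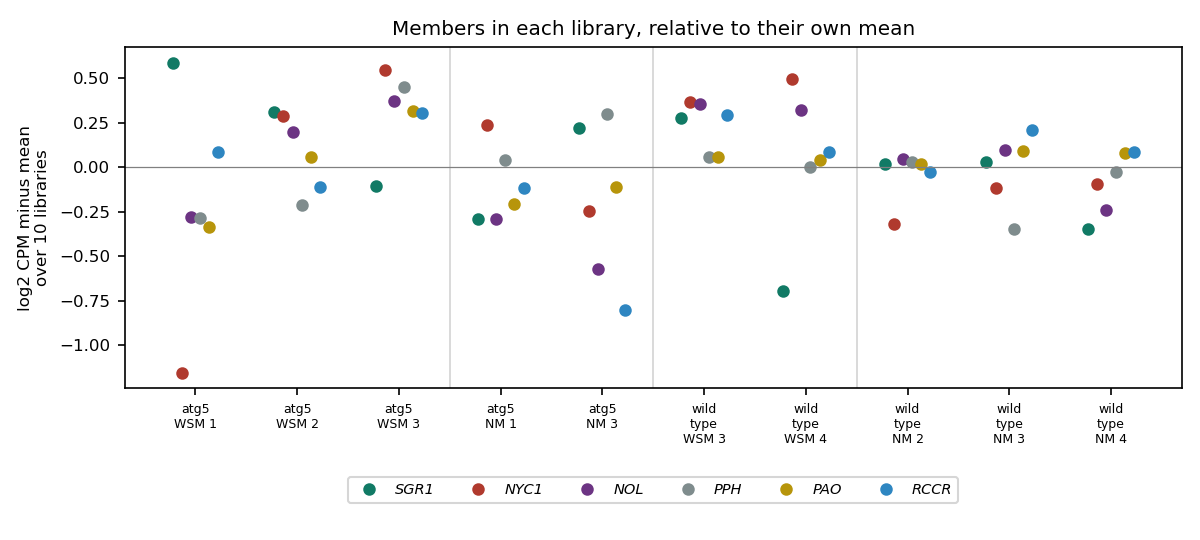
Log2 CPM of the 6 members listed in both tables, minus each member's own mean over the 10 libraries, by library and group. In library 1 of atg5 WSM, SGR1 lies above its mean and NYC1 lies more than any other value below its own, and in library 3 all members but SGR1 lie above 0.

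The median coefficient of variation over libraries was 20.4% for the 6 members and 29.8% for the 19714 genes, without matching for level and without a test of the difference. NYC1 was at 30.2%, and SGR2, over its 5 wild-type libraries, at 46.0%. The summed level of the 6 members was 78.0 to 124 CPM in atg5 WSM and 82.1 to 93.2 CPM in atg5 NM, against 107 to 112 CPM in wild-type WSM and 91.0 to 94.9 CPM in wild-type NM libraries. The wild-type WSM libraries were both above the wild-type NM libraries, and the atg5 WSM libraries lay on either side of the atg5 NM libraries. The median log2 fold change of the 6 for WSM was 0.25 in atg5 and 0.12 in wild type, beside -0.02 and 0.02 over all genes. The summed level of root marker genes differed with the medium in wild type beyond the spread of libraries, and overlapped in atg5. It was 103 to 206 CPM in atg5 WSM and 158 to 229 CPM in atg5 NM, against 128 to 129 CPM in wild-type WSM and 249 to 277 CPM in wild-type NM. Taken singly, 3 of 6 root markers in atg5 and 6 of 6 in wild type had all WSM libraries below all NM libraries. Of all 19714 genes, 3264 and 5518 were so. Called lower in WSM were 520 of 19714 genes in atg5 and 517 in wild type. Of 6 root markers, 2 fell in atg5 and 3 in wild type, among them the aquaporins PIP2;4 and TIP2;3. These counts were 0 without library 3 of atg5 NM and 0 without library 3 of wild-type WSM. The summed level of 5 green cotyledon markers was 6199 to 15552 CPM in atg5 WSM and 6817 to 7746 CPM in atg5 NM, against 7883 to 13742 CPM in wild-type WSM and 10293 to 11512 CPM in wild-type NM. No marker of either list was at 0, and their part in the members' values was not tested.

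Of 9 other genes of chlorophyll breakdown listed in both tables, 1 rose and 1 fell in WSM in wild type, where 5.89% of all genes were called. ABCC2, a vacuolar transporter that takes up chlorophyll catabolites, rose by 0.87 ± 0.22 on the log2 scale (edgeR, adjusted p = 0.0462). CLH1, a chlorophyllase that cuts the phytol tail outside the PPH route, had a log2 fold change of -1.73 ± 0.38 (adjusted p = 0.0241). With a length offset ABCC2 was at 0.30 and not called. Both calls were lost when any 1 of the 5 wild-type libraries was left out, with adjusted p up to 0.281 for ABCC2 and 0.205 for CLH1. ABCC3, singled out after its values were seen, was not called by edgeR. It was at 52.2 and 36.0 CPM in wild-type WSM, against 12.4, 14.0 and 10.9 CPM in wild-type NM. The authors' deposited log2 fold change for it was 1.82, with an adjusted p of 3.77e-15. Its atg5 libraries overlapped, at 14.0, 102 and 80.5 CPM in WSM and 68.6 and 49.1 CPM in NM. In atg5 0 of the 9 genes were called for WSM by edgeR or DESeq2, and 0 had an unadjusted p under 0.05. For atg5 against wild type edgeR called 0 of 9 in NM and 0 in WSM, with 2 at an unadjusted p under 0.05 in each. DESeq2 called 2 in NM, beside 590 of all genes, and 0 in WSM, beside 343. Without library 1 of atg5 WSM edgeR called 1 in NM, beside 241 of all genes. None of 3 genes that salvage phytol, VTE5, PES1 and PES2, was called in any comparison by edgeR or DESeq2, or had an unadjusted p under 0.05.

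For WSM, 7.86% of all genes were called in atg5 and 5.89% in wild type. Among 17 regulators of the breakdown genes, MYC2, a jasmonate response factor, was the single one called in each genotype. Its log2 fold change for WSM was 1.62 ± 0.41 in atg5 and 1.75 ± 0.38 in wild type (edgeR, adjusted p = 0.0363 and 0.0239). These values are uncertain, because 98.5% of the MYC2 exons overlap AT1G32630 on the opposite strand, and the call was lost in atg5 when any of 7 libraries was left out and in wild type when any of 5 was. Of the 17 regulators, 4 in atg5 and 5 in wild type had an unadjusted p under 0.05 (edgeR), as did 25.2% and 22.5% of all genes. Of 9 genes known as senescence markers, 6 were tested, and SAG12, SAG13 and NAP are not analysed here. With WSM 4 of the 6 rose in atg5, where 5.22% of all genes were called higher, and 3 in wild type, where 3.27% were. ORE1, a senescence regulator singled out after its values were seen, had a log2 fold change of 0.03 ± 0.45 in atg5 and -1.41 ± 0.49 in wild type (edgeR, adjusted p = 0.9751 and 0.119), and its wild-type WSM libraries were all below the NM libraries. With 1 library left out these counts were 2 to 5 in atg5, with 2 without library 3 of atg5 NM, and 2 to 3 in wild type. WRKY53, a senescence regulator, rose by 2.88 ± 0.44 in atg5 and by 2.99 ± 0.40 in wild type on the log2 scale (edgeR, adjusted p = 0.00315 and 0.00141). WRKY6 rose by 1.97 ± 0.23 and 1.74 ± 0.21 on that scale, with adjusted p of 0.000761 and 0.000834. SAG14, a blue copper protein gene, rose by 4.11 ± 0.75 in atg5 and 3.74 ± 0.68 in wild type (adjusted p = 0.00817 and 0.00864), but its adjusted p was 0.0930 without library 3 of atg5 NM and 0.0656 without library 3 of wild-type WSM.

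On the side of synthesis, 1 of 27 chlorophyll synthesis genes rose in WSM in each genotype, beside 5.22% of all genes in atg5 and 3.27% in wild type. It was HEMA2, a glutamyl-tRNA reductase at the entry of the tetrapyrrole pathway, with a log2 fold change of 1.89 ± 0.22 in atg5 and 1.90 ± 0.20 in wild type (edgeR, adjusted p = 0.000724 and 0.000369). The HEMA2 call held with each library left out. At an unadjusted p under 0.05 there were 8 of the 27 in atg5 and 6 in wild type, beside 25.2% and 22.5% of all genes (edgeR). In atg5, 7 had all WSM libraries above all NM libraries and 0 had them below. In wild type 10 were above and 4 below. Of all genes, 16.2% in atg5 and 28.8% in wild type were above. The count of 1 called higher was 7 in atg5 and 4 in wild type without library 1 of atg5 WSM. Of all genes, 1589 and 1056 were called higher in that fit, against 1029 and 644 in the main fit.

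The light-harvesting genes of photosystem II, whose proteins carry most of the chlorophyll b that NYC1 and NOL reduce, were at lower values in atg5 in the NM comparison without passing the adjusted test. In atg5 against wild type in NM, all 13 had a negative log2 fold change, with a median of -1.19, and all 13 had groups that did not overlap, as did 19% of all genes in this direction. None of the 13 was called by edgeR, while all 13 had an unadjusted p under 0.05, as did 13.9% of all genes in either direction. DESeq2 called 7 of the 13 lower, and 298 of all 19714 genes. In the same comparison the 27 synthesis genes had a median of -0.42, with 24 negative and 0 called (8 at an unadjusted p under 0.05). DESeq2 called 1 of the 27, and 590 of all genes in either direction. Without library 1 of atg5 WSM 1 was called lower by edgeR, as were 114 of all genes. The medians were -0.07 for the 6 breakdown enzymes and 0.03 for all genes. For WSM in atg5 the light-harvesting genes had a median of 1.05. Of the 13, 1 was called there, LHCB2.3 at 1.51 ± 0.40 (edgeR, adjusted p = 0.0420), beside 5.22% of all genes called higher. In wild type the light-harvesting median was -0.15 with 0 of 13 called (0 at an unadjusted p under 0.05, 0 by DESeq2). The LHCB2.3 call was lost when any of 8 of the 10 libraries was left out. The count of 13 for WSM in atg5 was 9 by DESeq2 and 7 without library 1 of atg5 WSM. Of all genes, 1681 and 1589 were called higher under these settings, against 1029 in the main fit. Several light-harvesting genes are near-identical copies or overlap a gene on the opposite strand, as LHCB2.3 does over 40.6% of its exons, so single members are uncertain.

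**Figure D5:**
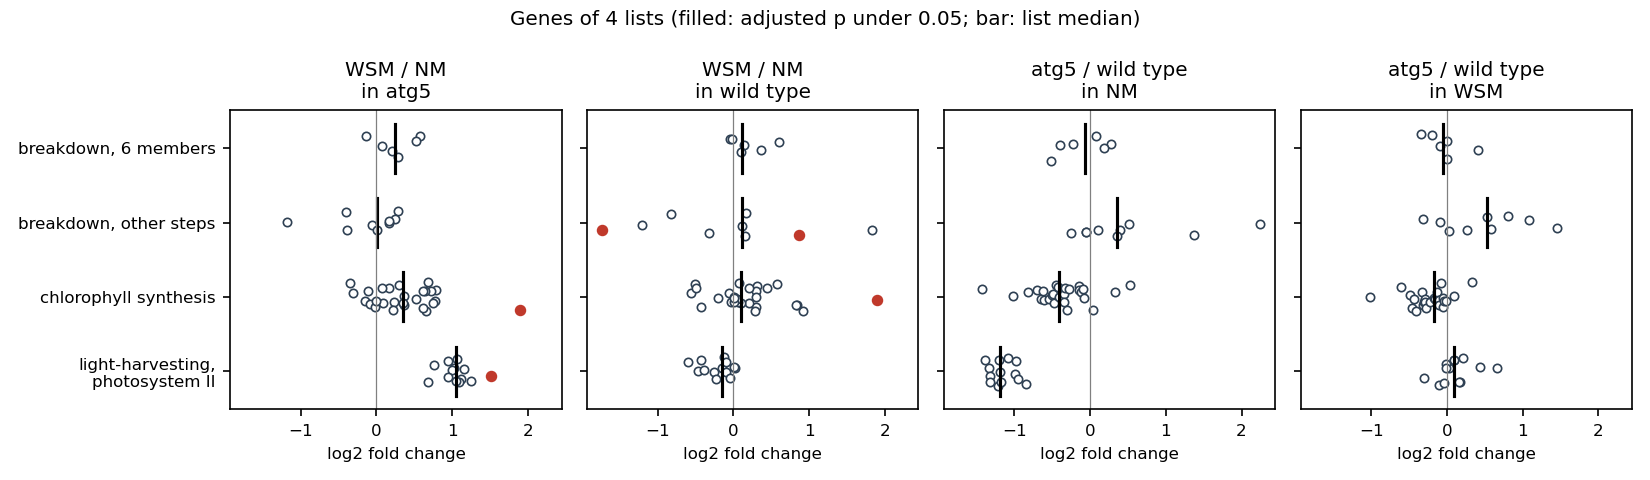
Log2 fold changes of the 6 breakdown enzymes, 9 other breakdown genes, 27 synthesis genes and 13 light-harvesting genes in 4 comparisons, with list medians as bars and called genes filled. In atg5 against wild type in NM the light-harvesting genes have a median of -1.19 and the breakdown enzymes one of -0.07.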

How the data were processed

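RNA-seq used a stranded mRNA kit with paired reads, per the labels' protocols. The submitters' processing notes name Bowtie2, bedtools, DESeq2, bcl2fastq and the build TAIR10. How strand was handled in counting is not stated there. For each genotype the authors deposited one file of unnormalized counts by gene. Next to these, per the file headers, stand deposited log2 fold changes, test scores and p-values from the authors' own comparison. Another 10 columns of normalized values were not used. Every listed gene exceeded 1 CPM in at least 2 libraries, so lower genes are not analysed here. Column numbers differ from those in the titles, so the 10 columns were matched to groups only, and 2 of 12 labelled samples have no column used here.

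The 19714 shared genes went into a joint quasi-likelihood fit over the 4 groups (R 4.3.3 with edgeR 4.0.16 and limma 3.58.1; TMM scaling). It left 6 residual degrees of freedom, and biological variation between libraries was 28.2% (BCV). No gene was lost to filterByExpr. SGR2 was fitted on the wild-type table alone. Benjamini-Hochberg adjusted p under 0.05 over all genes was a call. Errors given with fitted log2 fold changes are standard errors. CPM values use TMM-scaled totals, and CPM per kilobase divides them by exonic length in the RefSeq annotation of TAIR10.1, which also gave symbols, positions and sequences. Of all row names 18 had no gene model by locus. Coding sequences were aligned with Biopython 1.88. The rRNA regions are nuclear rRNA genes with 10000 bases around them, and plastid and mitochondrial rRNA genes without such a margin. The code was tested on simulated counts.

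All 7 members were named in every comparison, and of each other list up to 3 called genes with the largest absolute log2 fold change per comparison. The members and lists were chosen with earlier results of these data known. The entries CLD1, BCM1, BCM2 and VTE6 were dropped because the annotation did not pair locus and symbol. Alternatives were RLE factors, DESeq2 1.42.0, no filter, only the groups compared, each table alone, each library left out, the column number as a block, leaving out rRNA-region genes, the 2 libraries richest in them or the 2 atg5 WSM libraries with at least 100 PREP1 counts, and a length offset with and without the block. With the share of a library in rRNA regions differing this much, depth outside them limits genes with few counts.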

Additional observations from a re-analysis of the deposited data

How the results depend on the processing

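No gene was lost to the filter, so for the 6 shared members the no-filter setting repeats the main fit and had to keep direction. With it included, of 616 values of the members under alternatives, 575 kept their direction and were not called, 39 changed sign without a call, and 2 became calls. Both were NYC1 for WSM in wild type, so the count of members called there was 1 with only the groups compared and 1 with each table alone (NYC1 adjusted p = 0.00989 and 0.00987, edgeR); these fits leave out the atg5 libraries and their spread. Sign changes other than by leaving out 1 library were, as log2 fold changes: SGR1 for WSM in wild type, 0.019 when both libraries at 65.5% rRNA-region counts were dropped; NOL in the difference of responses, -0.045 with the length offset; PPH in WSM between genotypes, -0.0033 with only the groups compared, -0.012 without rRNA-region genes and -0.25 when atg5 WSM libraries 1 and 3, which had PREP1 counts, were dropped; and PAO in WSM between genotypes, -0.0046 and -0.012 with the first and second of these. Their cause was not tested.

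The column numbers were not shown to pair libraries: deviations of same-numbered libraries correlated at 0.10 and 0.16 in wild type and at -0.27 and -0.02 in atg5. With the column number as a replicate block, NYC1 for WSM in atg5 was -0.21 and SGR1 between genotypes in NM was -0.16, and no member was called. With block and length offset together, SGR1 and PPH for WSM in wild type were 0.023 and -0.035, NYC1 for WSM in atg5 was -0.10, NOL in the difference was -0.16 and SGR1 in NM was -0.12. Genes called with the block were 538 for WSM in atg5, 360 for WSM in wild type, and 0 between genotypes in NM and in WSM. With block and offset they were 578, 334, 0 and 0.

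With 1 library left out, log2 fold changes that crossed 0 were, for WSM in atg5, NYC1 (-0.23 to 0.41), and for WSM in wild type SGR1 (-0.62 to 0.38), SGR2 (-0.23 to 1.09) and RCCR (-0.0043 to 0.20). For the difference it was SGR1 (-0.092 to 0.91). Between genotypes in NM they were NYC1 (-0.077 to 0.41) and SGR1 (-0.20 to 0.32), and in WSM SGR1 (-0.012 to 0.99), PPH (-0.28 to 0.12), PAO (-0.16 to 0.14) and RCCR (-0.21 to 0.015). No member was called in these fits. A group left with 1 library takes its spread from the others.

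The counts over all genes that serve as background moved much more. For WSM in atg5, 1549 genes were called, 2659 with DESeq2, 320 with only the groups compared, 303 with the table alone and 467 to 2771 with 1 library left out. For WSM in wild type, 1161 were called, and 2171, 5786, 5833 and 272 to 2286 under those settings, with 2813 when libraries 1 and 3 of atg5 WSM were dropped. The difference gave 0, with 408 by DESeq2 and 0 to 53 with 1 library left out. Between genotypes in NM there were 29, with 590 by DESeq2, 240 with only the groups compared, 494 with those 2 dropped and 2 to 241 with 1 left out. In WSM there were 7, with 343 by DESeq2, 0 with only the groups compared, 36 with the rRNA-rich pair dropped, 61 with atg5 WSM libraries 1 and 3 dropped and 0 to 197 with 1 left out. Depth limits the members with few counts: in library 1 of atg5 WSM, NOL had 33 and SGR1 36.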
